A study of Mus musculus with 8 samples.

Results

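The cytosolic ribosomal proteins are the proteins that, together with ribosomal RNA, build the large 60S and the small 40S subunit of the ribosome in the cytoplasm. Their transcripts were compared between skin fibroblasts of Nd2-mutant and control mice. Members were all probes whose gene symbol is Rpl or Rps followed by a number and at most 1 of the letters a, x and l, together with Rplp0, Rplp1, Rplp2 and Rpsa. This gave 77 probes of 59 genes among 25697 probes of 18138 symbols on the array. Of these, 61 probes of 51 genes were detected well enough to be tested, among 10414 tested probes of 8003 symbols.

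RNA was hybridised to Illumina MouseRef-8 v2.0 arrays, 1 array per mouse. The Nd2-mutant group was 4 mice of the conplastic strain C57BL/6J-mtALR/LtJ, males 28 and 32 and females 34 and 35. The control group was 4 mice of C57BL/6J-mtAKR/J, males 16 and 17 and females 15 and 37. All mice were 12 months old. In a conplastic strain the mitochondrial genome of a donor strain is combined with the nuclear genome of the recipient, here C57BL/6J in both groups. The mutant strain carries a base exchange in Nd2, a mitochondrially encoded subunit of respiratory complex I, so no cytosolic ribosomal protein gene was itself targeted. The cells were primary cultures from dissociated skin in serum-containing medium, and no treatment is given in the labels.

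Ribosomal protein mRNAs are among the most abundant messengers of a growing cell. Most of them begin with a terminal oligopyrimidine (TOP) tract, a C followed by a run of C and T, through which the kinase complex mTORC1 controls their translation. Because the subunits are needed in equal numbers, the genes tend to be expressed together, and some free ribosomal proteins, such as Rpl5, Rpl11 and Rpl23, bind Mdm2 and so reach p53.

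RefSeq sequences around the transcription start were found for 48 of the 59 genes (build GRCm38.p6). A run of at least 8 bases that begins with C and holds C and T alone lay within 50 bases of an annotated start, on the transcribed sense strand, in 40 of these 48 genes (83.3%). The share was 32% among all 27025 genes with such a sequence. A run of at least 5 bases that began within 2 bases of an annotated start was present in 17 of the 48 genes (35.4%). That share was 10.6% among all genes. Windows of 30 bases are shown for 6 members of both subunits, 5′ to 3′ with the run in capitals, to show the feature the family shares beside its symbol:
Rpl18 (chr7:45718062-45718091, plus strand): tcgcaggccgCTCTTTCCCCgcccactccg
Rpl28 (chr7:4792953-4792982, plus strand): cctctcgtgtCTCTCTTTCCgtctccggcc
Rpl35 (chr2:39005119-39005148, minus strand): gtcggccccgCCCTTTCCTCTTTCTCTCga
Rps15a (chr7:118116143-118116172, minus strand): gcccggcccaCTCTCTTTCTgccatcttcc
Rps6 (chr4:86857349-86857378, minus strand): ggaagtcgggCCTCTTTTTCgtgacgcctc
Rps7 (chr12:28635912-28635941, minus strand): gctgtccccaCCTCTTTTCTTCCgccaccc
The run is 10 bases long in Rpl18, Rpl28, Rps15a and Rps6, 13 in Rps7 and 18 in Rpl35. Positions are counted from the annotated first base as 1, and are negative before it. The run begins at 2 in Rpl18, -2 in Rpl28, -7 in Rpl35, -15 in Rps15a, -1 in Rps6 and 23 in Rps7. A match of letters is a description of the sequence, and the arrays did not measure where transcripts start or how they are translated.

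The array of control mouse 15 stood apart from the others. For each probe the log2 intensity of a mouse was set against the median of the 8 mice. The median of this deviation over the 61 probes was -0.43 in control mouse 15 and lay between -0.01 and 0.05 in the other 7 mice. Control mouse 15 was the lowest of the 8 mice in 45 of 61 ribosomal protein probes (73.8%), against 31.4% of all tested probes. Its median deviation was -0.44 for the 33 probes of the 60S subunit and -0.41 for the 28 probes of the 40S subunit, and -0.02 over all tested probes. The 997 other probes in the top 10% of mean intensity, where 44 of the 61 members also lay, had a median deviation of -0.03 in this mouse. Some gene groups near the family shared the shift and others did not. Other mRNAs known to begin with a TOP tract had a median deviation of -0.45, with mouse 15 the lowest in 17 of 26 probes. Elongation and initiation factors had one of -0.32, with mouse 15 the lowest in 39 of 59 tested probes. These lists overlap, with probes of Eef2, Pabpc1, Eef1b2 and Eef1a1 among those counted in both. The 88 tested probes of mitochondrial ribosomal proteins, which build the separate ribosome inside mitochondria, had a median deviation of -0.39, and mouse 15 was the lowest in 58 of them. Ribosome biogenesis factors had a median deviation of -0.01, with mouse 15 the lowest in 19 of 71 tested probes. Subunits of RNA polymerase I had one of 0.21, with mouse 15 the lowest in 3 and the highest in 8 of 16. For regulators of ribosomal protein synthesis it was 0.009, with mouse 15 the lowest in 1 of 10.

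**Figure D1:**
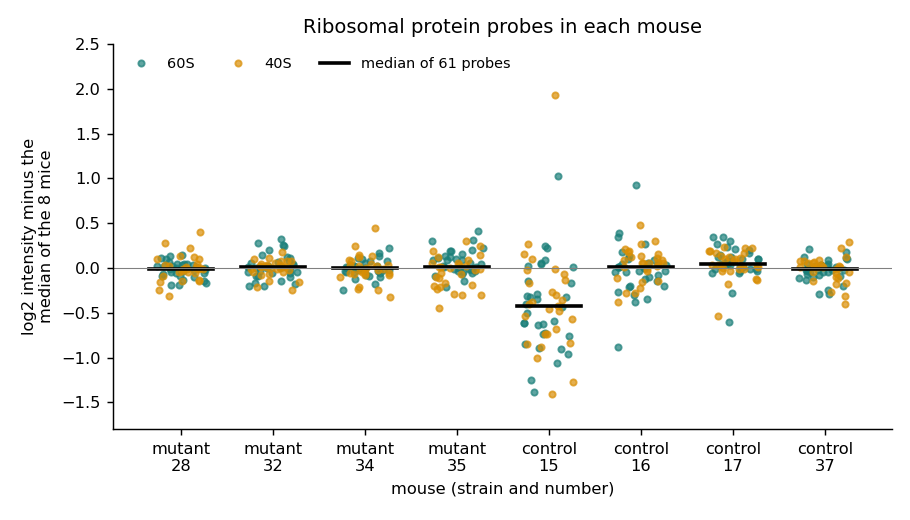
Log2 intensity of the 61 tested ribosomal protein probes minus the median of the 8 mice (vertical axis), by mouse (horizontal axis), with 60S and 40S probes as points and the median of the 61 probes as a bar. The bar lies at -0.43 in control mouse 15 and between -0.01 and 0.05 in the other 7 mice.

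The array of mouse 15 also correlated less with the others (mean correlation 0.93, against 0.96 to 0.97) and had 17 ribosomal protein probes among its 100 brightest, where the others had 22 to 25. It had 10735 detected probes, inside the control range of 10663 to 10837, and the mutant arrays had 10973 to 11350. Of 11 fibroblast markers with a probe, 10 were detected on all arrays, with a summed intensity of 43731 to 48536 in mutant and 36690 to 52900 in control mice, where mouse 15 was the highest. Summed endothelial markers were also highest in mouse 15 (538, against 128 to 368 in the other mice). Of them Emcn, Tek and Pecam1 were detected on all 8 arrays, while Kdr was detected on no array. Summed macrophage markers ran from 310 to 1977 in mutant mice, with mouse 35 the highest, and from 238 to 626 in controls. Laptm5, Fcer1g and Csf1r among them were detected on all 8 arrays, while Ptprc and Itgam were detected on no array. Keratinocyte markers summed to 196 to 1169 in mutant and 324 to 957 in control mice, with Krt14 and Krt10 detected on all 8 arrays. Smooth muscle and pericyte markers summed to 12487 to 15143 in mutant and 15575 to 17638 in control mice, taking the brightest probe of each gene. Acta2, Actg2, Tagln, Myh11, Des and Cspg4 were detected on all 8 arrays, and Cnn1 and Rgs5 were detected on no array. Most of the smooth muscle and pericyte sum was probe ILMN_2693895 of Acta2. It held the highest value of the array in mutant mouse 35 and control mouse 15 (13935). Other probes of Acta2 had a log2 fold change of -0.23 (ILMN_2923445), 0.33 (ILMN_2710354) and 0.25 (ILMN_2710353). The part of these cell markers in the ribosomal protein values was not tested, and in cultured cells in bulk a lower share of a cell type and less RNA per cell cannot be told apart.

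The comparison of the strains asks whether fibroblasts with the Nd2 mutation express the ribosomal protein genes differently. No ribosomal protein probe passed an adjusted p of 0.05 in limma, and neither did any of the 10414 tested probes (0%), the smallest adjusted p being 0.639. At an unadjusted p of 0.05, 0 members were higher in the mutant, where 4.50% of all tested probes were, and 0 were lower, where 3.13% were. The log2 fold change, mutant minus control, was above 0 for 45 of 61 members (73.8%), against 50.2% of all tested probes. Its median over the members was 0.11, with quartiles of -0.002 and 0.21, while the median over all tested probes was 0.001. By subunit the median was 0.14 for 60S probes, of which 24 of 33 were above 0, and 0.09 for 40S probes, of which 21 of 28 were.

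This tilt toward the mutant rested on control mouse 15. Without that mouse 31 of 61 members lay above 0, against 48.2% of all tested probes, and the median over the members was 0.003. The 60S median was then 0.007 and the 40S median -0.03. Again 0 members passed an adjusted p of 0.05 in limma (0% of all tested probes). At an unadjusted p of 0.05 there were 0 higher members (4.20% of all tested probes) and 1 lower member, Rpl34 (3.59%). In the males alone, which exclude mouse 15, 20 of 61 members were above 0 and the median was -0.04. In the females alone, which include it, 52 were above 0 and the median was 0.28. Over all 10414 tested probes 4915 were above 0 in males and 5527 in females, with medians of -0.02 and 0.02. These splits hold few mice per strain.

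**Figure D2:**
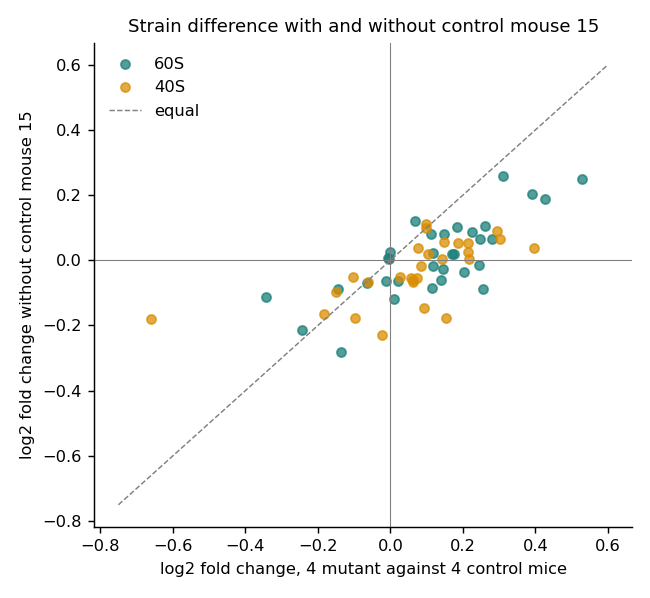
Log2 fold change, mutant minus control, of the 61 tested ribosomal protein probes over all 8 mice (horizontal axis) and without control mouse 15 (vertical axis), coloured by subunit, with a dashed line of equal values. Most points lie below the line, and the median moves from 0.11 to 0.003.

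One member had groups that did not overlap: Rpl12, a protein at the base of the ribosomal stalk. Its intensity was 5591, 5513, 5540 and 7300 in mutant mice 28, 32, 34 and 35 and 4299, 5012, 5438 and 4477 in control mice 15, 16, 17 and 37. Every mutant mouse was above every control mouse, the nearest pair being 5513 and 5438. The means were 5986 ± 877 and 4806 ± 519 (SD, n = 4 each). The log2 fold change was 0.31 (SE 0.15), with an unadjusted p of 0.0638 and an adjusted p of 0.639 in limma. An exact permutation test of the single probe gave p = 0.0286, the smallest that 4 against 4 mice allow. Any probe without overlap reaches this value, so the test adds nothing to the separation by which Rpl12 was picked. Among all tested probes 2.24% were higher without overlap and 2.13% were lower, so 1 higher and 0 lower of 61 is not above the background. Without mouse 15 the log2 fold change of Rpl12 was 0.26, and 1 member was higher without overlap (3.73% of all tested probes) and 2 were lower, Rpl34 and Rpl30 (4.20%).

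The stalk recruits elongation factors to the ribosome and is formed by Rplp0, Rplp1 and Rplp2 on Rpl12. Rplp0, the protein that anchors the stalk, had a log2 fold change of 0.12 (SE 0.16), and -0.02 without mouse 15. Its values were 531, 498, 486 and 481 in the mutants and 343, 523, 539 and 455 in the controls. Mouse 15 was the lowest, and the other controls ran from 455 to 539, on both sides of the mutants. Rplp1, an acidic stalk protein, read 13935, 13137, 13137 and 13137 in the mutants and 12028, 13935, 13935 and 13935 in the controls. The value 13935 is the highest of each array, and Rplp1 held it on 4 of 8 arrays. Its log2 fold change of -0.01 (SE 0.12) therefore comes from a probe among the highest values, which quantile normalization makes the same set on every array. The probe of Rplp2, the other acidic stalk protein, was detected on no array.

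Among the other 60S proteins, Rpl3, a core protein of the peptidyl transferase region, had the smallest p of those with a log2 fold change below 0. It read 7119, 6671, 6671 and 7680 in the mutants and 8855, 8572, 8476 and 7443 in the controls. Control mouse 37 fell among the mutants and the other controls lay above all of them. The log2 fold change was -0.24 (SE 0.13), with an adjusted p of 0.639 in limma, and -0.21 without mouse 15. Here mouse 15 was the highest of the 8 mice, the opposite of its place in most members.

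Rpl34 was among the lower members whose value grew when mouse 15 was left out. It read 3710, 3694, 3855 and 3613 in the mutants and 3029, 4811, 4456 and 4299 in the controls. Control mice 16, 17 and 37 were above all mutants and mouse 15 below them. The log2 fold change was -0.14 (SE 0.16), and -0.28 without mouse 15, with an unadjusted p of 0.0350 and an adjusted p of 0.618 in limma. Rpl30 read 570, 552, 591 and 594 in the mutants and 345, 606, 638 and 596 in the controls, and its log2 fold change was 0.12 with mouse 15 and -0.09 without it. Rpl36a, encoded on the X chromosome, had a log2 fold change of -0.07 (SE 0.12).

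Several of the higher 60S members followed mouse 15. Rpl18 read 3839, 4762, 4326 and 4284 in the mutants and 2589, 3918, 4104 and 3941 in the controls. Mouse 15 was the lowest, and the log2 fold change of 0.26 (SE 0.17) became 0.11 without it. Rpl27 read 1432 to 1652 in the mutants, 873 in mouse 15 and 1365 to 1601 in the other controls, and its log2 fold change went from 0.25 (SE 0.19) to 0.06. Rpl35, which lies at the peptide exit, read 6994 to 7637 in the mutants, 5335 in mouse 15 and 6115 to 7300 in the other controls, with a log2 fold change of 0.18 (SE 0.14) and 0.10. A list made for proteins that line or surround the tunnel through which the new peptide leaves had 10 tested probes of 8 genes. It includes Rpl24 and Rpl29, which may not belong at the tunnel, so the counts describe the list alone. All 10 had a log2 fold change above 0, with a median of 0.18, and mouse 15 was the lowest mouse in 9 of them. Without it 7 of 10 were above 0, with a median of 0.05, beside the family's 31 of 61.

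Among the 40S proteins, Rps7, which is needed to process the small subunit RNA and binds Mdm2, had the highest log2 fold change, 0.40 (SE 0.32). It read 1772, 1523, 1276 and 1138 in the mutants and 498, 1213, 1504 and 1412 in the controls. Mouse 15 was far below all others, which overlapped fully, and without it the log2 fold change was 0.04. Rps6, the 40S protein phosphorylated by S6 kinase, read 3141, 2796, 2826 and 3051 in the mutants and 1461, 2251, 3201 and 3102 in the controls, and went from 0.30 (SE 0.23) to 0.07. Rps4x, encoded on the X chromosome, read 7163 to 9315 in the mutants, 4256 in mouse 15 and 7085 to 7836 in the other controls, and went from 0.30 (SE 0.21) to 0.09.

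Rps15a had the most negative log2 fold change of the family, -0.66 (SE 0.42), from a dim probe. It read 58, 77, 68 and 49 in the mutants and 321, 90, 45 and 92 in the controls. Mouse 15 was the highest here and the other controls overlapped the mutants. Without it the log2 fold change was -0.18. Rps14, a 40S protein that also binds Mdm2, read 6423, 6543, 6454 and 6003 in the mutants and 7836, 7517, 6671 and 6276 in the controls, with a log2 fold change of -0.15 (SE 0.13). Rps25, a protein of the 40S head, had a log2 fold change of -0.10 (SE 0.17), and -0.05 without mouse 15.

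**Figure D3:**
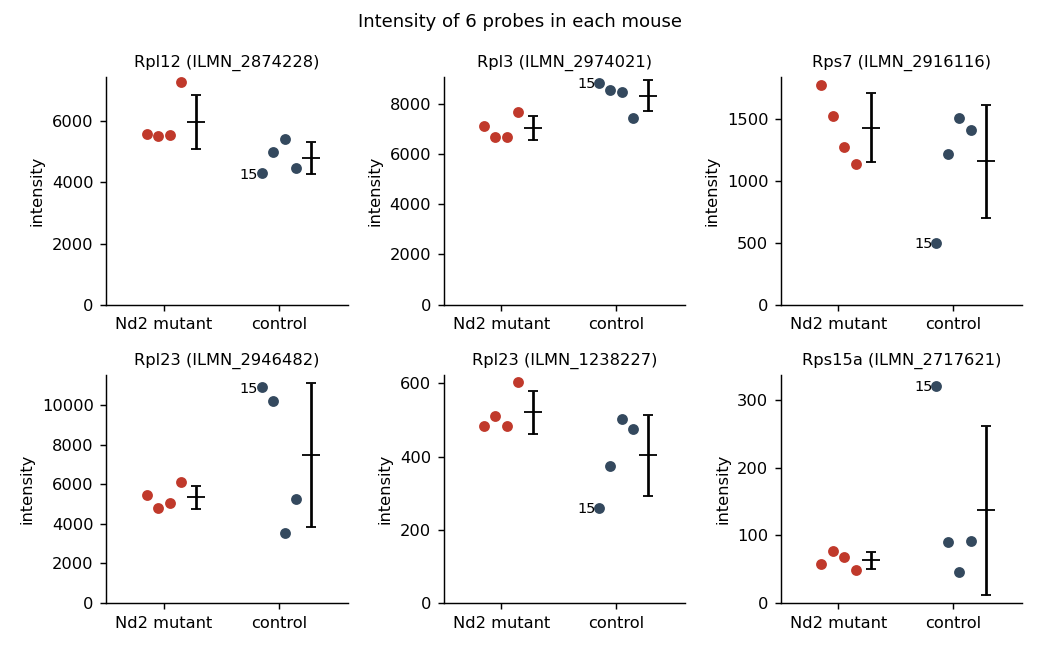
Intensity (vertical axis, linear, from 0) of 6 ribosomal protein probes in each of 4 Nd2-mutant and 4 control mice, with the mean and SD beside the points and control mouse 15 marked. Mouse 15 is at 498 for Rps7, 321 for Rps15a, and 10914 and 261 for the 2 probes of Rpl23.

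The list of Mdm2-binding ribosomal proteins had 8 tested probes of 5 genes. 5 were above 0 and 3 below, none passed an unadjusted p of 0.05 in limma, and the median was 0.12, which became -0.04 without mouse 15. Ribosomal proteins mutated in Diamond-Blackfan anaemia, a failure of red cell formation, had 12 tested probes of 9 genes, of which 9 were above 0, with a median of 0.14 and 0.05 without mouse 15. The paralogues that are restricted to some tissues or conditions were mostly low. Rpl3l, the form of striated muscle, was detected on no array, and Rpl39l, known from testis, was detected on 5 of 8 arrays and not tested. Rps27l, a p53-inducible paralogue of Rps27, was detected in all mice and read 6647, 5633, 6245 and 4620 in the mutants and 3547, 4871, 5761 and 6003 in the controls, which overlapped. Its log2 fold change was 0.21 (SE 0.20), and 0.05 without mouse 15.

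Probes of one gene disagreed in several cases. Of 9 genes with several tested probes, 5 had probes of opposite sign (Rpl23, Rpl38, Rps19, Rps24 and Rps9), in values smaller than 2 standard errors. Without mouse 15 the count was again 5 (Rpl23, Rpl31, Rpl38, Rps19 and Rps3). Leaving it out widened the spread between probes in Rpl31, Rpl38, Rps3, Rps9 and Rps19. The spread narrowed in Rpl21, Rpl23, Rpl29 and Rps24. Rpl23, a 60S protein that binds Mdm2, had the widest spread, 0.73 on the log2 scale. Its probe ILMN_2946482 read 5459, 4782, 5038 and 6115 in the mutants and 10914, 10223, 3536 and 5279 in the controls. Control mice 15 and 16 were well above the other 6 mice, and the log2 fold change was -0.34 (SE 0.32). Its probe ILMN_1238227 read 482, 512, 483 and 605 in the mutants and 261, 375, 504 and 477 in the controls. The same control mice, 15 and 16, were the lowest on that probe, and the log2 fold change was 0.39 (SE 0.20). The third probe, ILMN_2742807, had a log2 fold change of -0.14 (SE 0.15). Without mouse 15 the 3 values were -0.11, 0.20 and -0.09, and their spread was 0.32.

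Rpl29 had 2 probes of the same sign that differed in size. ILMN_2730005 read 539, 482, 587 and 598 in the mutants and 204, 295, 574 and 571 in the controls, with a log2 fold change of 0.53 (SE 0.30), the highest of the family. ILMN_2857570 read 4080 to 5012 in the mutants and 3787 to 4953 in the controls, with a log2 fold change of 0.07 (SE 0.14). Without mouse 15 the values were 0.25 and 0.12. Rps24, a 40S protein, gave -0.18 (SE 0.13) on ILMN_3126986, where mouse 15 was the highest mouse, and 0.06 (SE 0.18) on ILMN_2625060, where it was the lowest. Both were below 0 without mouse 15 (-0.17 and -0.07). The 2 probes of Rpl21 gave 0.43 (SE 0.23) and 0.28 (SE 0.22), and their values ran from 10 to 54. Without mouse 15 they gave 0.19 and 0.07. Rps9 gave 0.07 and -0.02, Rpl38 0.01 and -0.01, Rps19 0.10 and -0.10, and Rps3 0.14 and 0.09. In 6 genes some probes were tested and others were not, so the choice of probe also decided whether a gene was measured.

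**Figure D4:**
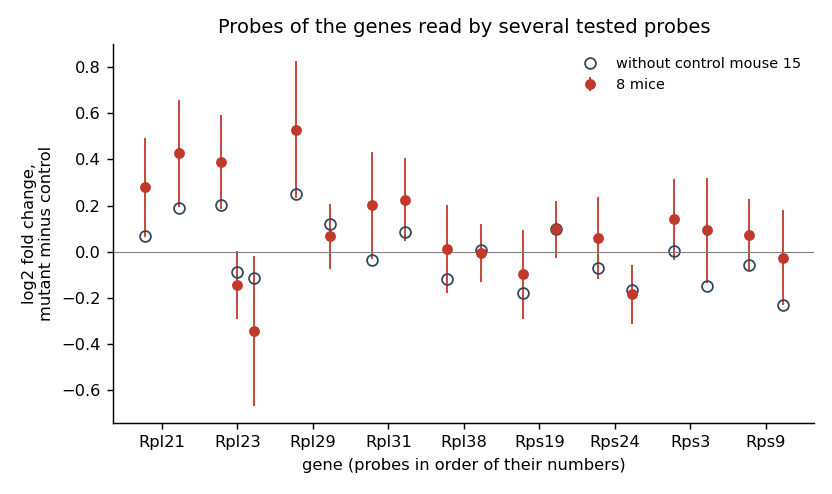
Log2 fold change, mutant minus control (vertical axis), of each tested probe of the 9 genes with several tested probes (horizontal axis), over 8 mice with standard errors (filled) and without control mouse 15 (open). The 3 probes of Rpl23 lie at -0.34, -0.14 and 0.39.

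The probes of 8 genes were not tested at all: Rpl14, Rpl17, Rpl39l, Rpl3l, Rpl6, Rplp2, Rps23 and Rpsa. Of the 16 untested member probes 12 were detected on no array. These proteins are core parts of the ribosome, apart from the paralogues, so a probe without signal here cannot be read as an absent transcript. RefSeq names 239 pseudogenes after 45 of the 59 member symbols, with up to 23 for one symbol (Rpl31 and Rps12). The probe sequences were not analysed here, so how far a probe also reads such copies is uncertain. For Rps12 and Rpl41 the chromosome given with the probe, 7 and 17, differs from that of the RefSeq gene, 10 in both cases.

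Many members lay at the top of the intensity scale. The brightest 1% of tested probes, those with a mean intensity above 5416, numbered 104, and 22 of them (21.2%) were ribosomal protein probes, of 21 genes. Members made up 4 of the 10 and 12 of the 50 brightest tested probes. Rplp1, Rpl41, Rpl38 and Rpl37 were among these bright members. Bright members moved less between mice than the others. The median range over the 8 mice was 0.40 on the log2 scale for the 22 members above this limit and 0.83 for the 39 below it. Other bright probes also had a narrower range, 0.53 for the 82 above the limit, against 0.80 for all tested probes. The median deviation of mouse 15 was -0.17 in the 22 members above the limit and -0.61 in the 39 below it. Of the bright members 12 of 22 had a log2 fold change above 0, with a median of 0.02, and of the others 33 of 39, with a median of 0.15. Whether the narrower range of bright probes comes from saturation was not tested.

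**Figure D5:**
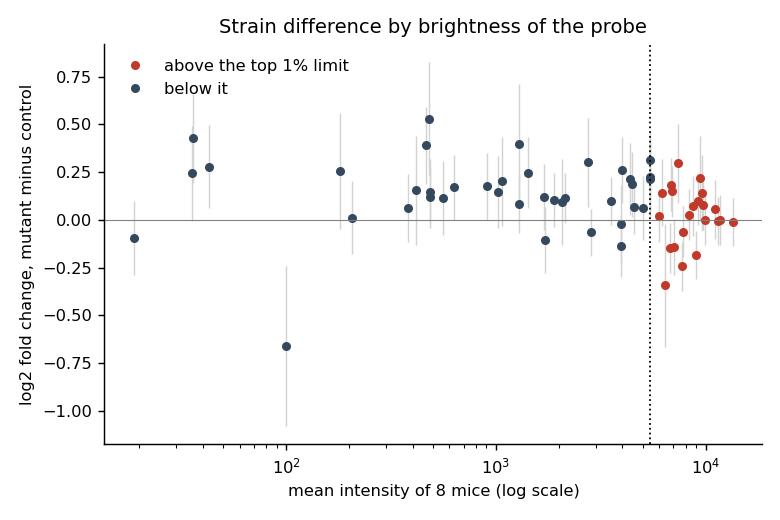
Log2 fold change, mutant minus control, with standard error (vertical axis) against the mean intensity of the 8 mice (horizontal axis, log scale) for the 61 tested ribosomal protein probes, with a dotted line at the limit of the brightest 1% of tested probes, 5416. Of the 22 probes to the right of the line 12 lie above 0, and of the 39 to its left 33 do.

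Males and females differed in no member at an adjusted p of 0.05 in limma, where 2 of all tested probes did (0.0192%). At an unadjusted p of 0.05, 0 members were higher in males (3.86% of all tested probes) and 0 were lower (4.45%). The median log2 difference, male minus female, was 0.12 over the members and 0.01 over all tested probes. This fit included control mouse 15, a female whose array was low for the family. The interaction of strain and sex passed an adjusted p of 0.05 in 0 members (0.00960% of all tested probes) and an unadjusted p of 0.05 in 1 member (1.77%). That was probe ILMN_2754355 of Rps19, which read 14, 12, 29 and 17 in the mutants and 14, 30, 19 and 17 in the controls, all near the low end of the scale.

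The genes around the ribosomal proteins were described by lists. Ribosome biogenesis factors had 71 tested probes, of which 31 were above 0 and 40 below, with a median of -0.04, and 1 probe passed an unadjusted p of 0.05 in limma in each direction. Subunits of RNA polymerase I, which transcribes ribosomal RNA, had 16 tested probes, 5 above 0 and 11 below, with a median of -0.17. Regulators of ribosomal protein synthesis of the mTORC1 and MYC pathways had 10 tested probes, 5 in each direction. Elongation and initiation factors had 59 tested probes, 37 above 0 and 22 below, which turned to 23 above and 36 below without mouse 15 (median 0.07 and -0.02). At an unadjusted p of 0.05, where 4.50% of all tested probes were higher and 3.13% lower, 8 of the 59 were higher and 1 lower, and 5 and 1 without mouse 15. The 8 probes came from 5 genes, with 3 probes of Eef2 and 2 of Pabpc1, the poly(A)-binding protein, whose probe ILMN_1259482 had a log2 fold change of -0.0095. Other mRNAs with a TOP tract had 26 tested probes, 16 above 0 and 10 below, and 13 in each direction without mouse 15. At that level 6 were higher and 0 lower, all 6 also among the elongation and initiation factors, and without mouse 15 the counts were 5 and 1. Eef2, the translocation factor of elongation and a member of both lists, read a mean of 301 in mutant and 146 in control mice on probe ILMN_2589181, with a log2 fold change of 1.07 (SE 0.28), an adjusted p of 0.639 in limma and 0.84 without mouse 15. Mitochondrial ribosomal proteins, beside the cytosolic ones, had 53 of 88 tested probes above 0, and 22 without mouse 15.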

How the data were processed

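RNA of skin fibroblasts from 8 mice was measured on 8 arrays. The authors' intensity values, on a linear scale, had been extracted in GenomeStudio (version not given in the sources used here), quantile normalized across arrays and corrected for background. Quantile normalization gives every array the same set of values, so shifts are relative to the other probes of an array. Each deposited intensity comes with a detection p-value from GenomeStudio, based on negative control beads. The table named as non-normalized held the same values and was not used. Strain, sex and number came from the labels. The mice are separate animals.

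Negative values were raised to 0 and log2(intensity + 16) was used, which understates changes of dim probes. Probes with a detection p-value under 0.01 on all 4 arrays of at least 1 strain were tested with limma 3.58.1 in R 4.3.3 (lmFit and eBayes), with Benjamini-Hochberg adjustment over 10414 probes. Single probes were also tested by an exact two-sided permutation test. In simulated data for this comparison, with 10414 probes, 6 of 55 probes changed by 0.5 on the log2 scale were called, 60 of 73 changed by 1 and 72 of 72 changed by 2. The number of arrays limits the precision.

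Named were the 10 higher and 10 lower member probes with the smallest p, genes whose probes differed in sign or by 0.5, probes without overlap, Rpl3, Rps24, the stalk proteins, Rpsa, the Mdm2-binding and tissue-restricted lists, up to 5 of the brightest members and members not tested. For other lists, 3 members at most were open to naming. Other named genes were chosen after their values were seen. The members and lists were chosen with earlier results of these data known. Start sequences came from RefSeq (GRCm38.p6).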

Additional observations from a re-analysis of the deposited data

Results flagged for a closer look

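Of 70 groups of 4 values examined for a mouse far from the other 3 of its strain, 12 had one. Chance at 1 in 20 gives 3.5 for independent groups. These groups share mice and probes, and the probes were partly named from the same values, so no excess can be read from the count. The measure is the gap to the nearest mouse as a share of the range of the strain. For control mouse 15 it was 0.884 for the median deviation of all ribosomal protein probes, 0.837 for that of the 60S and 0.901 for that of the 40S probes. The same mouse stood apart on Rps9 (0.872 on ILMN_1377921 and 0.910 on ILMN_2643092), Rpl18 (0.899) and Rps4x (0.835), below the other controls each time. Mutant mouse 35 stood above the other mutants on Rpl12 (0.950) and on probe ILMN_2862280 of Rps19 (0.846). Mutant mouse 32 stood above the other mutants in the median deviation of the 40S probes (0.865), a matter of 0.011 against -0.011 to -0.014. For Rplp1 the share was 1 for mutant mouse 28 and 1 for control mouse 15, because the other 3 mice of each strain had identical values. These are among the highest of the set of values that quantile normalization gives to every array.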

How the results depend on the processing

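In the main analysis and all 26 alternatives 0 ribosomal protein probes passed an adjusted p of 0.05, and of 32 named probes 18 kept their direction throughout, or 19 apart from centring on the family, which by construction lowers all members alike. Members higher and lower at an unadjusted p of 0.05, 0 and 0 in the main analysis, were 1 and 1 with 50 added before log2 and with an intensity trend (Rpl12 and Rpl3), 1 and 2 on the linear scale and by the methods' t-test (with Rps24 lower too), and 1 and 3 without a detection filter (with Rpl27a). Over all tested probes 2.97% to 4.61% were higher and 2.54% to 3.40% lower under these settings. The methods' t-test left 0 members after Benjamini-Hochberg adjustment, and 1 of all 10414 tested probes. Leaving out 1 mouse gave 0 to 4 higher and 0 to 2 lower. The 4 and 2 came without control mouse 17 (Rpl12, Rpl21, Rpl23 and Rpl29, against Rpl23 and Rps15a), where 8.11% of all tested probes were higher and 5.69% lower, 1 higher without control mouse 37 (Rpl29, 6.50% of all) and 1 lower without control mouse 15 (Rpl34, 3.59% of all). Females alone gave 1 lower (Rps15a, 1.74% of all). Array weights, which gave mouse 15 a weight of 0.19 and the other mice 0.62 to 1.73, brought the median to 0.02.

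Members above 0, 45 in the main analysis, were 20 in males alone. Centring on the family, which sets the balance around 0 in advance, left 26. The median was 0.28 in females alone. An alternative chosen after seeing the data left out mouse 15 together with the brightest 1% of probes, and gave 21 of the 39 remaining members above 0 and 1 lower at an unadjusted p of 0.05 (Rpl34, 3.60% of all). It turned Rpl38 ILMN_2594971 (-0.118), Rps24 ILMN_2625060 (-0.0678), Rps3 ILMN_2637639 (-0.146) and Rplp0 (-0.0161).

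Other log2 fold changes turned as follows. Array weights turned Rps9 ILMN_1377921 (-0.0296), Rps3 ILMN_2594103 (-0.0249) and ILMN_2637639 (-0.105), and Rpl38 ILMN_2594971 (-0.0242) and ILMN_3135931 (0.0363). Centring on the family turned, by its construction, Rps9 ILMN_1377921 (-0.0689), Rpl38 ILMN_2594971 (-0.130), Rps24 ILMN_2625060 (-0.0800), Rps3 ILMN_2637639 (-0.0484), Rplp0 (-0.0236) and Rps19 ILMN_2862280 (-0.0437). Males alone turned Rps9 ILMN_1377921 (-0.0071), Rps3 ILMN_2594103 (-0.0020) and ILMN_2637639 (-0.0489), Rpl38 ILMN_2594971 (-0.0417), Rps24 ILMN_2625060 (-0.170), Rps15a (0.0464) and Rplp0 (-0.0440). Females alone turned Rps9 ILMN_2643092 (0.161), Rpl34 (0.0483), Rpl36a (0.0356), Rps19 ILMN_2754355 (0.298), Rplp1 (0.0210) and Rpl38 ILMN_3135931 (0.0436). On the linear scale Rpl38 ILMN_2594971 differed by -3.42 intensity units. Leaving out 1 mouse at a time gave ranges of -0.118 to 0.160 and -0.0433 to 0.0309 for Rpl38 ILMN_2594971 and ILMN_3135931, -0.0550 to 0.125 and -0.228 to 0.0600 for Rps9 ILMN_1377921 and ILMN_2643092, -0.0161 to 0.193 for Rplp0, -0.0638 to 0.0069 for Rplp1, -0.241 to 0.0271 for Rps19 ILMN_2754355, -0.0678 to 0.156 for Rps24 ILMN_2625060 and -0.146 to 0.221 for Rps3 ILMN_2637639. Apart from the mice left out, the cause was not tested.

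The planned background correction of non-normalized values was not run, since both tables hold the same values. No paired analysis was possible because mouse numbers do not recur between the strains. In simulated data for this comparison 6 of 55 probes changed by 0.5 on the log2 scale were called.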
